A study of Mus musculus with 15 samples.

Results

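The 10 genes described here encode the SMAD proteins that carry the TGFß signal and the proteins that restrain it: the receptor-activated SMADs *Smad2* and *Smad3*, the common partner *Smad4*, the inhibitory *Smad6* and *Smad7*, the nuclear repressors *Ski*, *Skil* and *Tgif1*, and the ubiquitin ligases *Smurf1* and *Smurf2*. They were chosen by name, as the probes that the array files assign to a RefSeq transcript of one of these genes. This gave 10 of the 23462 genes named on the array. The genes had 21 probes, and all 21 were bright enough to be tested. A gene is represented by its brightest probe, and its other probes are given where they differ.

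The RNA came from Mouse Embryonic Fibroblasts (MEFs) of the established 3T3 line, which is clonal and descends from Balb/c embryos, and was hybridised to 15 one-color 60-mer oligonucleotide microarrays in 5 groups of 3. All groups were the same line in the same medium. Controls received no cytokine, and the other groups received TGFß1 at 5 ng/ml, TNFα at 10 ng/ml, IL1β at 1 ng/ml, or IL6 at 20 ng/ml together with its soluble receptor sIL6Rα at 25 ng/ml. The protocol in the labels names 24 or 72 h of culture, the study describes 24 h for the TGFß1 and TNFα arrays, and no time is stated for the IL1β and IL6/sIL6Rα groups by name. Replicas are described as independent experiments of 1 line, so the spread between arrays does not include the spread between animals.

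In unstimulated cells, SMAD2 and SMAD3 wait in the cytoplasm. A TGFß ligand brings its type II and type I receptors together, the type I receptor phosphorylates SMAD2 and SMAD3, and these join SMAD4, enter the nucleus and act on their target genes with other transcription factors. The pathway also switches itself off: SMAD7 blocks the receptor and recruits the SMURF ligases, SMAD6 mainly restrains the related BMP branch, and SKI, SKIL (also called SnoN) and TGIF1 repress SMAD target genes in the nucleus. In fibroblasts this pathway is best known for driving the matrix program of fibrosis.

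Levels are given as the log2 signal of a probe minus the 75th percentile of its array, so that 0 is the level that 75% of probes stay under. They can be set side by side between arrays for the same probe, but not between genes. Between 48.3% and 54.9% of the probes on an array were well above background, and no spot was saturated. The arrays lay on 2 slides. Slide 1 held control 1 and 11, TGFß1 7, TNFα 14, IL1β 5 and 10 and IL6/sIL6Rα 3 and 8, and slide 2 held the rest, where each number is the one that opens the label of the array. A gene was called changed at a q-value under 0.05 with a fold-change of at least 1.5, in a limma fit over all 15 arrays and 29334 probes. All comparisons with control share the same 3 control arrays, and all comparisons of TGFß1 share the same 3 TGFß1 arrays.

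All 9 fibroblast markers examined, among them *Col1a1*, *Pdgfra* and *Vim*, were well above background on every array. Of 4 macrophage markers, *Ptprc* and *Adgre1* were above background on no array and *Csf1r* and *Cd68* on all 15. Of 4 endothelial markers *Cdh5*, *Kdr* and *Tie1* were above background on none and *Pecam1* on all 15. Of 4 epithelial markers, *Krt8* and *Krt18* were above background on all 3 TGFß1 arrays and not on all arrays of any other group. Of 7 cytokine-response genes, 5 rose with TNFα, 6 with IL1β and 1, *Socs3*, with IL6/sIL6Rα. Over all probes 4.09%, 0.228% and 0.058% were called higher in these comparisons. The 7 genes were chosen with earlier results of these data known, so the counts are a description and cannot check the treatments.

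With TGFß1, 4 of the 10 genes were called. *Smad7*, *Skil* and *Tgif1* rose by 2.02, 1.53 and 1.22 on the log2 scale, and *Smad6* fell by 1.92. Over all 29334 probes, 7.51% were called higher and 10.4% lower in this comparison. *Smad2*, *Smad3*, *Smad4* and *Ski* did not pass the test by their brightest probes. With TNFα 2 genes were called, *Tgif1* higher and *Smad6* lower, where 4.09% of all probes were called higher and 5.96% lower. With IL1β, where 0.232% of all probes were called in either direction, no member was called. With IL6/sIL6Rα, where 0.058% of all probes were called, none was called either. The median change of the 10 genes was 0.34 with TGFß1, beside 0.07 over all probes, and -0.04 with TNFα, beside 0.04 over all probes. Each array holds RNA of a whole culture, so fewer cells that express a gene and less RNA per cell cannot be told apart.

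**Figure D1:**
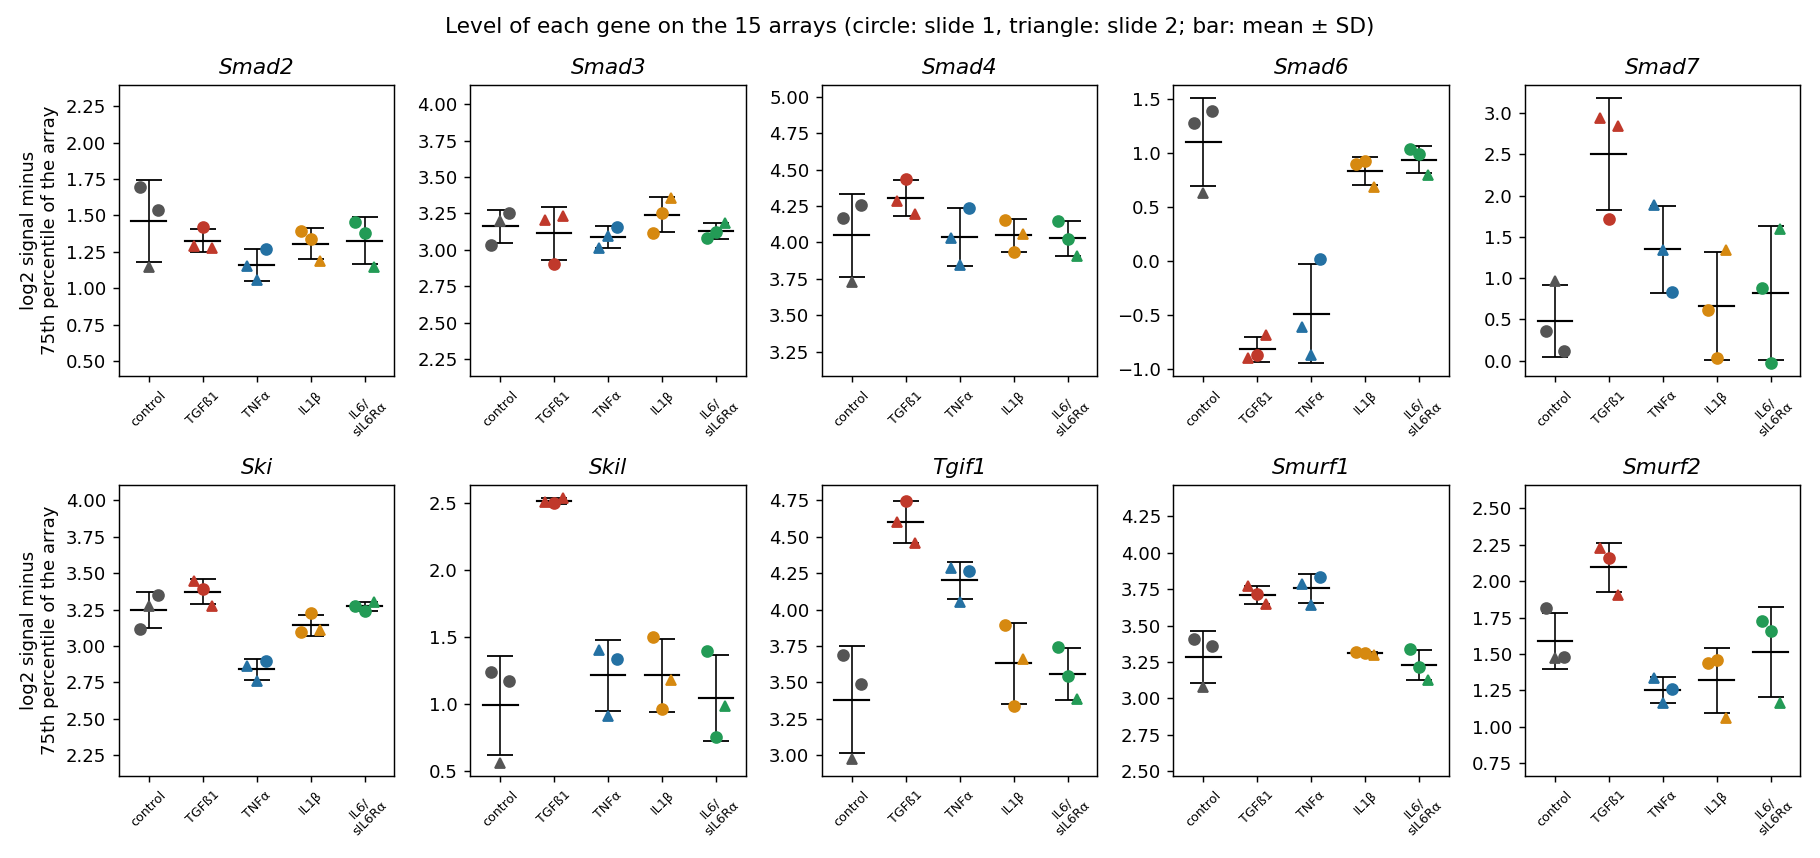
Level of each of the 10 genes on the 15 arrays, as the log2 signal of the brightest probe minus the 75th percentile of the array (y axis, a range of its own in each panel), by group (x axis). Circles are arrays of slide 1 and triangles arrays of slide 2, with the mean and SD of each group in black; the 3 TGFß1 arrays stand above all others for *Skil* and *Tgif1*, and the TGFß1 and TNFα arrays stand below all others for *Smad6*.

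**Figure D2:**
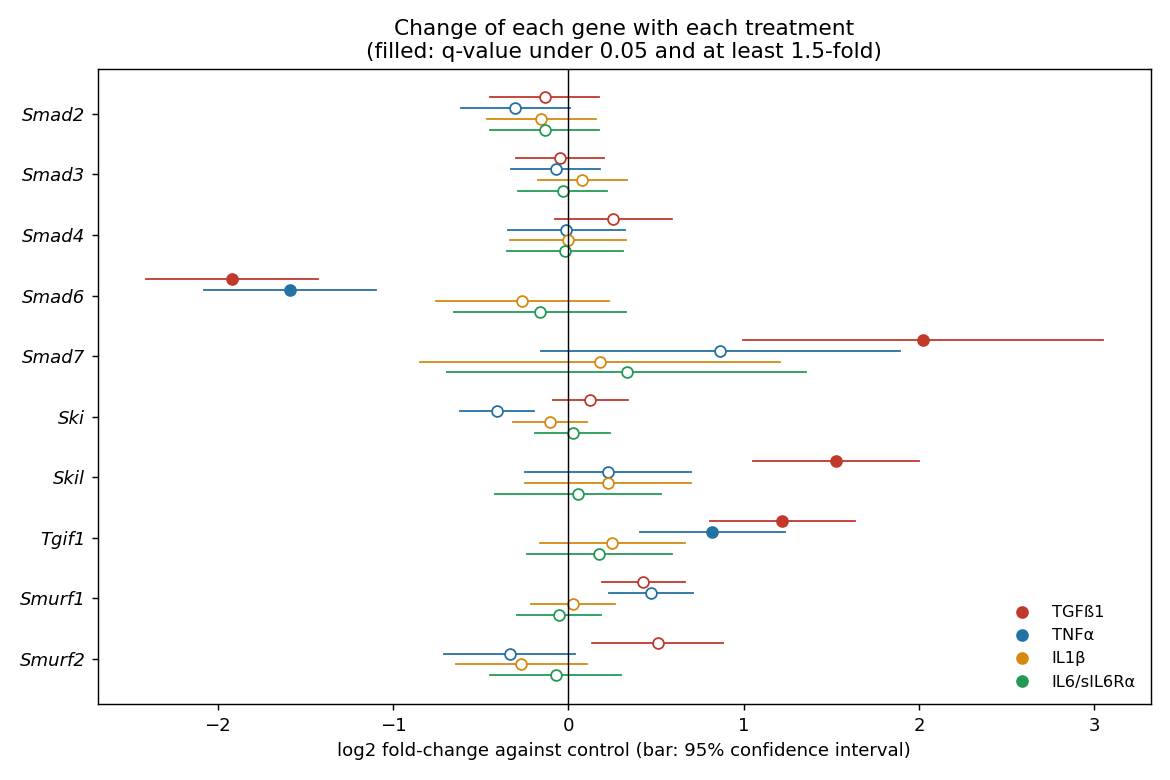
The log2 fold-change against control (x axis) of each gene (y axis) with each of the 4 treatments, as the limma estimate with its 95% confidence interval. Filled points passed a q-value of 0.05 with at least 1.5-fold; they are *Smad6*, *Smad7*, *Skil* and *Tgif1* with TGFß1 and *Smad6* and *Tgif1* with TNFα.

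*Smad2*, one of the SMADs that the TGFß receptor phosphorylates, had 2 probes, to different transcripts, and they differed. The brighter probe, to NM_001252481, read 1.70, 1.15 and 1.54 on control 1, 6 and 11, and 1.29, 1.42 and 1.28 on TGFß1 2, 7 and 12. These ranges overlapped, and the difference was -0.13 with an SE of 0.14 (q-value of 0.529). The probe to NM_010754 read 0.91, 0.83 and 0.97 on the controls and 1.30, 1.24 and 1.46 with TGFß1. All 3 TGFß1 arrays lay above the controls there, by 0.43 with an SE of 0.13 and a q-value of 0.0261, which passed the q-value but at 1.35-fold stayed under the fold criterion. With TNFα the brighter probe differed by -0.30 (95% confidence interval of -0.61 to 0.01) and the other by 0.12, and neither passed.

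*Smad3*, the other receptor-activated SMAD of the TGFß branch, showed the narrowest spread of group means of the 10 genes, 0.15 from the highest group to the lowest. Its brighter probe read 3.03, 3.20 and 3.26 on the controls, 3.20, 2.90 and 3.23 with TGFß1, and 3.01, 3.09 and 3.16 with TNFα. The groups overlapped in every neighbouring pair. The difference with TGFß1 was -0.05, with a 95% confidence interval of -0.30 to 0.20, and with TNFα it was -0.07, with an interval of -0.33 to 0.18. Its dimmer probe gave -0.17 and -0.09, and passed in neither comparison.

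*Smad4*, the partner shared by the TGFß and BMP branches, had 5 probes. The brightest read 4.16, 3.72 and 4.25 on the controls, 4.28, 4.44 and 4.19 with TGFß1, and 4.03, 3.84 and 4.24 with TNFα. The TGFß1 arrays overlapped the controls, and the difference of 0.26 had a 95% confidence interval of -0.07 to 0.59. The other 4 probes differed by 0.04 to 0.24 with TGFß1, and none of the 5 passed a q-value of 0.05 in any of the 7 comparisons. With the slide as a block the brightest probe differed by 0.33 with TGFß1, which passed the q-value at 0.0399 but not the fold criterion. With TNFα the 5 probes ran from -0.12 to 0.01.

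*Smad6*, the inhibitory SMAD best known for restraining BMP signalling, fell with both TGFß1 and TNFα. Its promoter window is shown because this was the 1 gene of the 10 called lower. The window is RefSeq sequence of GRCm38.p6, chr9:64022010-64022309 on the minus strand, from 250 bases before the annotated start to 50 bases after it. Capitals mark a match to GTCTAGAC, the palindromic sequence known as a SMAD-binding element, which reads the same on both strands.
Smad6: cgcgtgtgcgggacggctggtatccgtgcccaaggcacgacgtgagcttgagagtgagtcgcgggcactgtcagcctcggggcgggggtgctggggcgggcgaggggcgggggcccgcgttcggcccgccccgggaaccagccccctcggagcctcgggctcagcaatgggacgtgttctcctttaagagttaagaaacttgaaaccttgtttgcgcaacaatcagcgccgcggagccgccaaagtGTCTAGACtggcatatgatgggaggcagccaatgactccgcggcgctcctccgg
The match begins 4 bases before the annotated start and runs across it. Of all 32851 mouse windows of this kind 0.213% held this sequence. The shorter SMAD motif CAGAC, which the palindrome does not contain on either strand, was in 49.6% of windows on at least 1 strand and not in this one. The GC-rich GGCGCC was in 11.9% and not in this one. The palindrome was searched after the window had been seen, and a match in the letters is a description of the sequence.

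*Smad6* read 1.27, 0.63 and 1.39 on control 1, 6 and 11. It read -0.90, -0.87 and -0.69 on TGFß1 2, 7 and 12, and -0.61, -0.87 and 0.01 on TNFα 4, 9 and 14. Every TGFß1 and TNFα array lay under every control array. The fall with TGFß1 was 3.78-fold (log2 of -1.92, SE 0.23, q-value of 0.000112), and the fall with TNFα was 3.00-fold (-1.59, SE 0.23, q-value of 0.000653). The IL1β arrays read 0.90, 0.92 and 0.69 and the IL6/sIL6Rα arrays 1.03, 0.99 and 0.79. Both groups overlapped the controls, with differences of -0.26 (95% confidence interval of -0.75 to 0.23) and -0.16 (-0.65 to 0.33). From high to low the group means ran control, IL6/sIL6Rα, IL1β, TNFα and TGFß1, and of the neighbours in this order the arrays of IL1β and TNFα alone did not overlap. Control 6, the control array of slide 2, was the lowest of its group. With the slide as a block the changes were -1.80 with TGFß1 and -1.47 with TNFα. Within slide 1 they were -2.20 and -1.32, and within slide 2 -1.43 and -1.37.

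*Smad7*, which blocks the type I receptor and brings the SMURF ligases to it, rose with TGFß1. It read 0.36, 0.97 and 0.12 on control 1, 6 and 11 and 2.94, 1.72 and 2.85 on TGFß1 2, 7 and 12. All TGFß1 arrays lay above all controls, by 4.06-fold (log2 of 2.02, SE 0.47, q-value of 0.00857). This was the largest rise of the 10 genes and also the one with the widest error. The TNFα arrays, at 1.88, 1.34 and 0.83, overlapped the controls, and the difference of 0.87 had a 95% confidence interval of -0.16 to 1.89 (q-value of 0.277). The IL1β arrays spread from 0.03 to 1.34 and the IL6/sIL6Rα arrays from -0.03 to 1.59, and both overlapped the controls.

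The slide moved with the level of *Smad7*. In all 5 groups the arrays of slide 2 read higher than those of slide 1 by this probe. With the slide as a block the change with TGFß1 was 1.70, and it was 1.48 within slide 1 and 1.93 within slide 2. The second probe, to the same transcript NM_001042660, read -1.40, -2.29 and -1.79 on the controls and -0.42, -0.48 and -0.94 with TGFß1. It rose by 1.21 with an SE of 0.39 (q-value of 0.0399). With TNFα, IL1β and IL6/sIL6Rα this second probe differed from control by 0.21, 0.09 and -0.06, and passed in none of them. Here the array of slide 2 was the lowest of the controls, the reverse of the brighter probe, while both probes placed every TGFß1 array above every control. The part of the slide in the level was not tested further.

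*Ski*, a nuclear repressor that binds the SMAD complex, did not pass the test with TGFß1. It read 3.12, 3.27 and 3.35 on the controls and 3.45, 3.39 and 3.28 with TGFß1, a difference of 0.12 with a 95% confidence interval of -0.09 to 0.34. With TNFα it read 2.87, 2.76 and 2.90, under every array of the other 4 groups. The difference from control was -0.41 with an SE of 0.10, which passed the q-value at 0.0170 but at 1.32-fold did not pass the fold criterion. TNFα thus held the lowest place in the order of the groups, and the other 4 groups overlapped from neighbour to neighbour.

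*Skil*, the close relative of *Ski* that also represses SMAD targets, rose with TGFß1 by all 3 of its probes. The brightest, to NM_011386, read 1.23, 0.56 and 1.17 on the controls and 2.51, 2.49 and 2.54 with TGFß1. The 3 TGFß1 arrays lay close together, with an SD of 0.02, and above every other array. The rise was 2.88-fold (log2 of 1.53, SE 0.22, q-value of 0.000401). The probe to NM_001039090 rose by 1.67 and the probe to NM_001271772 by 1.82, with q-values of 0.00392 and 0.000235. With TNFα the brightest probe read 1.40, 0.91 and 1.33, overlapped the controls and differed by 0.23 (95% confidence interval of -0.25 to 0.70). The probe to NM_001039090 differed by 0.40 with TNFα and overlapped the controls. The probe to NM_001271772 differed by 0.62 (0.10 to 1.15), with every TNFα array above every control. It was not called (q-value of 0.119). The levels of the brightest probe ran from 0.96 to 1.499 with IL1β and from 0.75 to 1.39 with IL6/sIL6Rα. By that probe TGFß1 stood alone at the top of the order, and the other 4 groups overlapped from neighbour to neighbour. Within slide 1 the rise with TGFß1 was 1.29 and within slide 2 it was 1.96.

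*Tgif1*, a homeodomain repressor that competes with co-activators for the SMAD complex, rose with TGFß1 and with TNFα. RefSeq gives it 5 promoter windows, of which 3 held CAGAC on either strand. A window of *Tgif1* is shown because this was the 1 gene of the 10 called higher with both cytokines. Of its 5 windows the 1 with the most matches, 2, was taken. It is chr17:70851685-70851984 of GRCm38.p6, on the minus strand, with the matches in capitals, as CAGAC or its reverse complement.
Tgif1: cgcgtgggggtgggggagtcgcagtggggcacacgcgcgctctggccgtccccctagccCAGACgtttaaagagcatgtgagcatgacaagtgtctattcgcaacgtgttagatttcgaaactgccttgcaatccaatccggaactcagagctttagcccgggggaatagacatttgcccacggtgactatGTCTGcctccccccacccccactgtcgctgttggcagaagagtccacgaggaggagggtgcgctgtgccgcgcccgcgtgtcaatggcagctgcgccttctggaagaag
About as many windows of all genes held this motif at least once, 49.6%, as did not. The share of windows with 2 matches was not counted.

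The brighter *Tgif1* probe, to NM_001164075, read 3.69, 2.97 and 3.49 on the controls. It read 4.60, 4.74 and 4.46 with TGFß1 and 4.29, 4.06 and 4.26 with TNFα. Neither range overlapped the controls, and the lowest TGFß1 array lay above the highest TNFα array. The rise was 2.33-fold with TGFß1 (log2 of 1.22, SE 0.19, q-value of 0.000729) and 1.77-fold with TNFα (0.82, SE 0.19, q-value of 0.0138). The call with TNFα was lost without array TNFα 4 (0.78, q-value of 0.0601) and with each array centred on its median (0.72, q-value of 0.142). The dimmer probe, to NM_009372, rose by 1.48 and 0.99 and passed in both comparisons. The IL1β and IL6/sIL6Rα arrays ran from 3.34 to 3.89 and from 3.39 to 3.74, and both groups overlapped the controls. Within slide 1 the changes were 1.16 with TGFß1 and 0.68 with TNFα, and within slide 2 they were 1.56 and 1.2.

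*Smurf1*, a ubiquitin ligase first known for marking BMP-branch SMADs for breakdown, was slightly higher with TGFß1 and with TNFα. It read 3.41, 3.08 and 3.36 on the controls, 3.77, 3.71 and 3.65 with TGFß1, and 3.79, 3.64 and 3.84 with TNFα. Both treated groups lay above all controls. The differences of 0.43 (SE 0.11, q-value of 0.0141) and 0.47 (SE 0.11, q-value of 0.0139) passed the q-value but were 1.35-fold and 1.39-fold. The IL1β arrays lay within 3.30 to 3.32 and overlapped the controls.

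*Smurf2*, the ligase that joins SMAD7 at the receptor, differed between TGFß1 and TNFα more than either did from control. The brighter probe read 1.81, 1.47 and 1.48 on the controls, 2.23, 2.16 and 1.91 with TGFß1, and 1.34, 1.16 and 1.26 with TNFα. TGFß1 lay above the controls by 0.51 (SE 0.17, q-value of 0.0485), at 1.42-fold, and TNFα lay under them by a difference of -0.33 (SE 0.17, q-value of 0.246). With the slide as a block the TGFß1 difference was 0.59 and was called, with a q-value of 0.00745, and without control 1 it was 0.62 and was called as well. The second probe gave 0.53 and -0.22.

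By the q-value alone, 6 of the 10 genes passed with TGFß1, where 24.3% of all probes passed, and 4 of 10 with TNFα, where 12.5% passed. The genes that passed without the fold criterion were *Smurf1* and *Smurf2* with TGFß1 and *Smurf1* and *Ski* with TNFα.

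**Figure D3:**
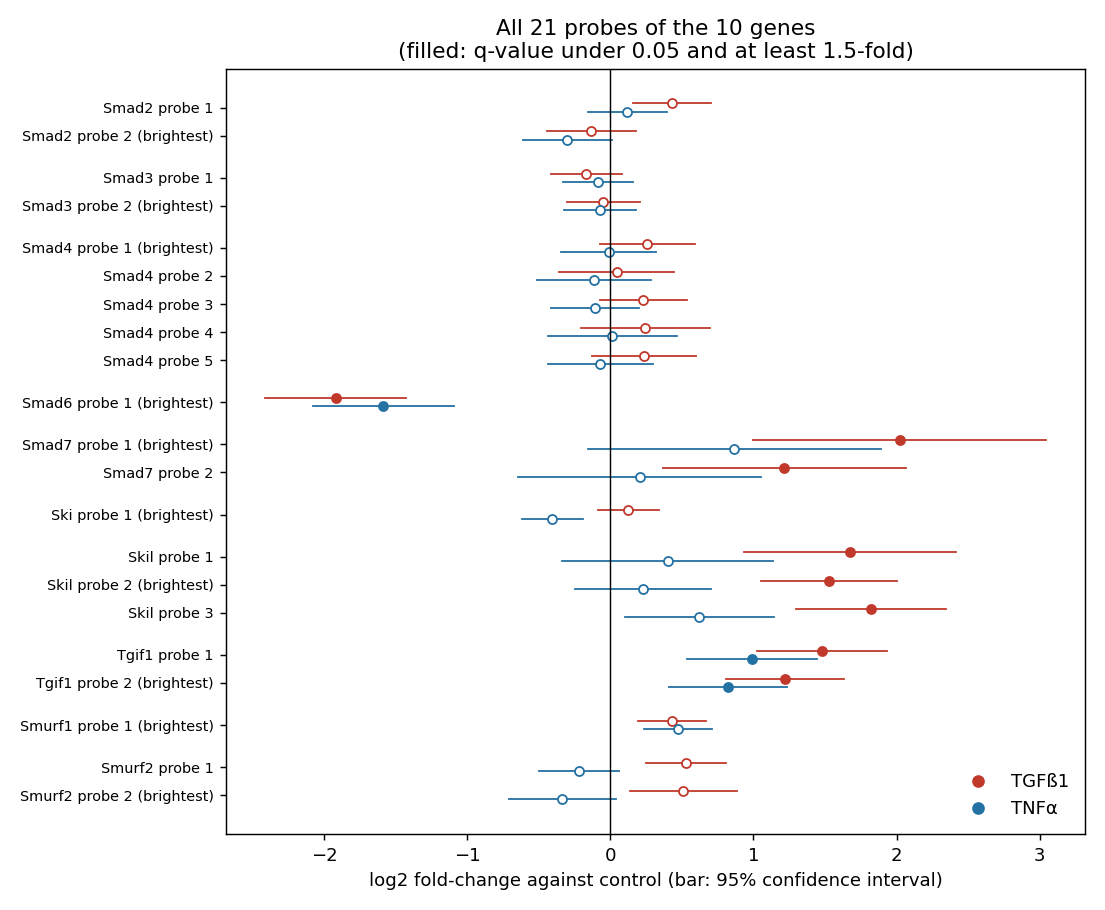
The log2 fold-change against control (x axis) with TGFß1 and with TNFα of all 21 probes (y axis), with 95% confidence intervals. Filled points passed a q-value of 0.05 with at least 1.5-fold; the 3 *Skil* probes, 2 *Tgif1* probes and 2 *Smad7* probes were all called higher with TGFß1, while the 2 *Smad2* probes lie on either side of 0.

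With IL1β, limma called 0 of the 10 genes and 0 had an unadjusted p-value under 0.05. The differences ran from -0.27 for *Smurf2* to 0.25 for *Tgif1*, and the lowest p-value was 0.143. With IL6/sIL6Rα, limma called 0 and 0 had an unadjusted p-value under 0.05, with differences from -0.16 for *Smad6* to 0.33 for *Smad7*. The intervals were not narrow for every gene: for *Smad7* they reached 1.204 with IL1β and 1.36 with IL6/sIL6Rα, so that a change of more than 2-fold was within them.

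TGFß1 and TNFα were compared directly as well, which asks where the profibrotic and the proinflammatory treatment differed. *Skil* was 2.46-fold higher with TGFß1 than with TNFα (log2 of 1.30, SE 0.22, q-value of 0.00129) and *Smurf2* was 1.79-fold higher (0.84, SE 0.17, q-value of 0.00491). Over all probes 5.17% were called higher and 6.61% lower in this comparison, and no member was called lower. *Ski* was higher by 0.53 with a q-value of 0.00256, at 1.44-fold under the fold criterion. *Smad7* was higher by 1.16 with a 95% confidence interval of 0.13 to 2.18 and was not called (q-value of 0.132). It was called with the slide as a block, where the q-value was 0.00400. *Tgif1*, which was called with both cytokines, was 0.40 higher with TGFß1 (interval of -0.01 to 0.81), and *Smad6* was -0.33 apart (-0.82 to 0.16), so neither was shown to differ between them.

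Against IL1β, 5 of the 10 genes were called. *Smad7* was higher with TGFß1 by 1.84, *Skil* by 1.30, *Tgif1* by 0.97 and *Smurf2* by 0.78, and *Smad6* was lower at -1.66, where 6.68% of all probes were called higher and 10.2% lower. The second *Smad7* probe was higher by 1.13, but its TGFß1 and IL1β arrays overlapped and it was not called (q-value of 0.0558). Against IL6/sIL6Rα, 4 were called: *Smad7* by 1.69, *Skil* by 1.47 and *Tgif1* by 1.04 were higher and *Smad6* lower at -1.76, with 6.57% of all probes called higher and 9.69% lower. In this comparison the second *Smad7* probe was called as well, at 1.28 (q-value of 0.0350). *Smurf2* differed there by 0.58, at 1.497-fold just under the fold criterion. It was called, as the fifth member, with the slide as a block (0.66, q-value of 0.00450), with slide and runs as blocks (0.65), without TGFß1 12 (0.68) and without IL6/sIL6Rα 3 (0.69). Both calls of *Smad7* were lost without some single arrays, with differences that stayed above 1 on the log2 scale. Against IL1β it was 1.62 without TGFß1 2 (q-value of 0.0624), 1.67 without TGFß1 12 (0.0569) and 1.53 without IL1β 10 (0.0750). Against IL6/sIL6Rα it was 1.47 without TGFß1 2 (0.0913), 1.52 without TGFß1 12 (0.0820) and 1.27 without IL6/sIL6Rα 8 (0.114). With the slide as a block it was called in both, at 1.52 (q-value of 0.000851) and 1.37 (0.00165).

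Across the 15 arrays the 10 genes did not move as 1 block. Pearson's r was 0.90 between *Smurf1* and *Tgif1*, 0.86 between *Skil* and *Tgif1* and 0.77 between *Smad4* and *Skil*, and it was -0.81 between *Smad6* and *Tgif1* and -0.80 between *Smad6* and *Smad7*. *Smad3* had no r beyond -0.43 with any other member. These values describe 15 arrays that share 5 treatments, 2 slides and 1 scaling, and are not independent relations.

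Among about 20115 tested probes of other genes, those most like *Skil* over the 15 arrays were *Pdgfa*, a growth factor for mesenchymal cells, with an r of 0.98, *Tes* and the fibronectin receptor subunit *Itga5*. Most like the brighter *Smad7* probe were *Rap1gap2*, *Impdh1* and *Marcksl1-ps4*, each with an r of 0.98. That probe read higher on slide 2 in every group, which the second *Smad7* probe did not, and the part of the slide in these r values was not tested. Most like *Smad6* were *Snapc5* (0.98), *Igfbp6* (0.97), which binds insulin-like growth factors, and *Nim1k* (0.97). Most like *Tgif1* were *Gm24463*, *Riok2* and *Ppp2r3c*, each with an r of 0.98. The measure is a description of the same arrays.

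The rest of the pathway gives the setting of these changes. Beside the counts that follow, 7.51% of all probes were called higher and 10.4% lower with TGFß1, and 4.09% and 5.96% with TNFα. With IL1β 0.232% were called in either direction, and with IL6/sIL6Rα 0.058%. Of 8 ligand genes 5 were tested, and all 5 were called with TGFß1: *Inhba*, which encodes the activin A subunit, rose by 3.15, *Tgfb3* by 2.46, *Tgfb2* by 1.62 and *Tgfb1* itself by 1.60, while *Inhbb* fell by 1.49. *Bmp2*, *Bmp4* and *Bmp6* were above background on no array. With TNFα 1 of the 5 was called, *Tgfb2*, which fell by 1.19.

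Of 12 receptor genes, 3 rose and 3 fell with TGFß1, where 17.9% of all probes were called in either direction. *Bmpr1b*, a type I receptor for BMPs, was above background on no control array and was at least 41.7-fold higher with TGFß1 and at least 3.03-fold higher with TNFα. These bounds set its signal against that of the dimmest probe still above background on each control array. *Acvr1* rose by 1.03 and *Bmpr2* by 0.78. The TGFß type II receptor *Tgfbr2* fell by 0.90, the co-receptor *Tgfbr3* by 1.58 and *Acvrl1* by 1.28. The type I receptor *Tgfbr1* was not called, at a mean level of 0.83 in controls and 0.70 with TGFß1. With TNFα *Bmpr1b* was the 1 receptor called.

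Of the 3 SMADs of the BMP branch, *Smad9* fell by 1.48 with TGFß1 and *Smad1* and *Smad5* were not called. Of 16 nuclear partners of the SMADs, 3 rose with TGFß1, the transcription factors *Runx1* (1.88), *Runx2* (0.80) and *Zeb1* (0.76), and none fell. As a share this was near the 17.9% of all probes called in either direction. With TNFα 1 of the 16 was called, the stress-response factor *Atf3*, which rose by 1.02. Most of these partners therefore did not pass the test with either cytokine.

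Of 22 cytoplasmic and turnover regulators, 3 rose and 1 fell with TGFß1. This was about the share of all probes called in either direction, 17.9%. *Pmepa1*, a membrane protein that sequesters receptor-activated SMADs, rose by 2.30, from 4.26, 3.73 and 4.18 on the controls to 6.31, 6.42 and 6.33. Its relative *Ldlrad4*, which acts in the same way, rose by 0.99. *Ppp1r15a* (GADD34), which SMAD7 uses to bring a phosphatase to the receptor, rose by 0.71, and the deubiquitinase *Usp11* fell by 0.75. With TNFα limma called 0 of these 22 genes, although 7 had an unadjusted p-value under 0.05.

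The called genes of the 2 response lists went in different directions with TGFß1, where 7.51% of all probes were called higher and 10.4% lower. In these lists 6 of the 11 TGFß-response genes and 3 of the 8 BMP-response genes were not called. Both lists were chosen with earlier results of these data known, and the activity of the 2 branches was not measured. Of 11 genes known to respond to TGFß, 5 rose and none fell, among them *Ccn2* (3.08), *Il11* (2.62) and *Col7a1* (1.95). Of 8 genes known to respond to BMPs, 5 fell and none rose: *Id4* by 3.61, *Atoh8* by 2.34, *Id2* by 2.31, *Id3* by 1.27 and *Id1* by 1.00. With TNFα 3 of the 11 TGFß-response genes rose, *Pdgfb* (1.46), *Ltbp2* (1.13) and *Junb* (0.70), while *Tgfbi* fell by 2.38 and *Snai1* by 0.97. *Pdgfb* was above background on 1 of 3 control arrays. Of the BMP-response genes *Id4* fell by 2.46 and *Atoh8* by 1.08 with TNFα. With IL1β and with IL6/sIL6Rα, limma called none of the 77 tested genes of these 7 lists, and 3 and 5 of them had an unadjusted p-value under 0.05.

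**Figure D4:**
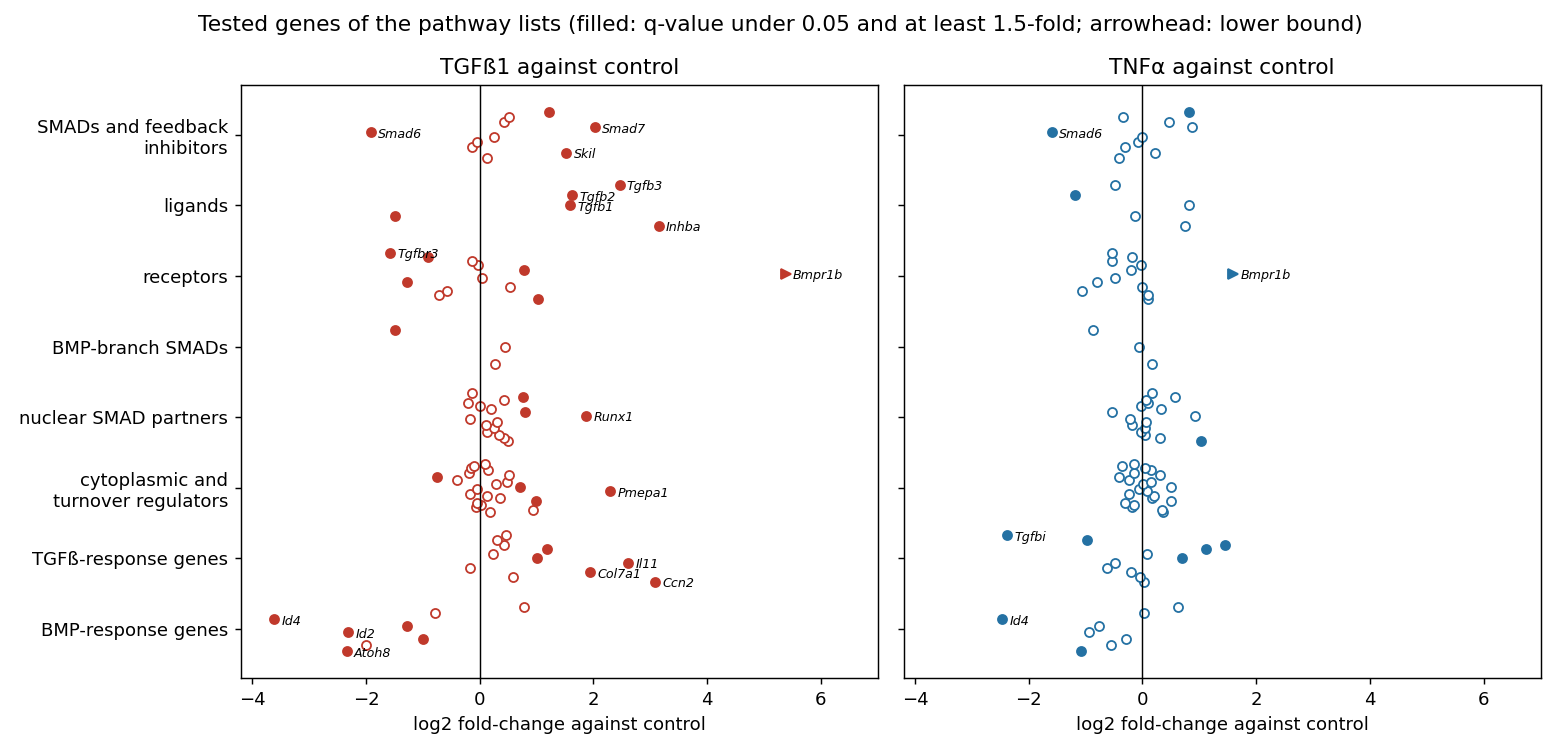
The log2 fold-change against control (x axis) of each tested gene of 8 lists (y axis) with TGFß1 (left) and TNFα (right), where filled points passed a q-value of 0.05 with at least 1.5-fold and called genes beyond 1.5 on the log2 scale are named. Arrowheads give *Bmpr1b*, which was above background on no control array, at its lower bound; the BMP-response genes called with TGFß1 all lie under 0 and the TGFß-response genes called with it all lie above 0.

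Markers of other cell types moved with TGFß1 in 1 list. The fibroblast markers summed to between 806 and 1060 times the 75th percentile of the array in controls, 911 to 1150 with TGFß1 and 692 to 914 with TNFα. The 4 macrophage markers summed to 1.23 to 1.76, 1.43 to 1.77 and 1.59 to 2.01, with 2 of 4 above background in every group. The 4 endothelial markers summed to 0.107 to 0.142, 0.115 to 0.122 and 0.126 to 0.162, with 1 of 4 above background. The 4 epithelial markers summed to 0.0623 to 0.191 in controls, 0.221 to 0.590 with TGFß1 and 0.0444 to 0.0729 with TNFα. *Krt8* was at least 3.36-fold higher with TGFß1 than in controls, where no array showed it above background, while *Cdh1* was above background on no array and *Epcam* on 1 TGFß1 array. A sum weighs the brightest markers most and hides opposite changes. Among the fibroblast markers *Col1a1* and *Pdgfrb* were called higher and *Pdgfra* and *Dcn* lower with TGFß1. With TNFα *Dcn* was called higher and *Col1a1*, *Col1a2* and *Col3a1* lower. The part of these levels in the changes of the SMAD genes was not tested.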

How the data were processed

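RNA of 15 cultures of MEFs was labelled with Cyanine 3, hybridised and scanned by the authors, and the deposited values are spot intensities after background subtraction by Agilent Feature Extraction (version 10.7.3.1 in the submitters' processing notes), with no normalization between arrays. Spots flagged as outliers and control spots were left out, leaving 56605 probes. The deposited intensity was taken to log2, spots of the same probe were averaged, and each array was shifted by its 75th percentile, which was 325 to 445 in signal units. The 29334 probes that stood well above background on all arrays of some group were fitted with limma 3.58.1 in R 4.3.3 over all 15 arrays, two-sided, with Benjamini-Hochberg q-values over all probes. The number of arrays limits the precision, and q-values rest on the spread between arrays of 1 line. Genes were called at a q-value under 0.05 and 1.5-fold. The fitting code was tested on simulated data.

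All 10 members were named, with the largest called genes of each list: up to 3 with TGFß1 and 2 in other comparisons. Others named to complete a count of up to 6 were chosen after their values were seen. For each member called with TGFß1, the 3 genes of highest Pearson's r were named. Members and lists were chosen with earlier results of these data known, and 1 gene of the TGFß-response list is not reported here. Bounds set the mean of the brighter group against the dimmest probe well above background on each array of the other. Alternatives were other background corrections (normexp, offset 50, on the median signal, in place of the mean signal that had been planned), quantile or median scaling, filters, the 9 arrays of 3 groups, the slide and the runs of label numbers as blocks, the deposited value table, the mean of a gene's probes, and leaving out each array. Promoter windows are RefSeq sequence; those of *Skil*, *Smad2*, *Smad4* and *Smad7* were not used here.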

Additional observations from a re-analysis of the deposited data

How the results depend on the processing

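Over the 70 pairs of a member and a comparison and all alternatives, 52 of 1920 values were counted as changed in sign. None of these was a called value, and the largest of them was 0.22 on the log2 scale. The 1920 include differences within each slide, where a changed sign was counted only for pairs that had been called. Sign changes of other pairs within a slide are therefore missing from the 52, and some were larger. Within slide 2 *Smad4* with IL1β was 0.33, beside -6e-04 on all arrays, and *Smad2* with TGFß1 was 0.13, beside -0.13. Within slide 1 *Smad3* differed by -0.26 between TGFß1 and TNFα, beside 0.025. Among the values reported, *Smad2* with TGFß1 was 0.15 by the mean of its probes, *Smad3* with TGFß1 ran from -0.11 to 0.057 and *Smad7* with IL6/sIL6Rα from -0.057 to 0.75 when 1 array was left out, and *Smad4* with TNFα ran from -0.17 to 0.092 when 1 array was left out, was 0.066 with the slide as a block and 0.073 with the slide and the runs. The number of members called with TNFα fell from 2 to 1 with each array centred on its median and to a range of 1 to 2 when arrays were left out, the call lost without TNFα 4 being *Tgif1*. With TGFß1 the number was 4 to 5 over 26 alternatives. Median centring moved the median of all probes between TGFß1 and TNFα to 0.14, where *Ski* was called at 0.63, and between TGFß1 and IL1β to 0.15. Without a filter on dim probes *Smad7* against IL6/sIL6Rα kept its difference of 1.69, but with q-values taken over 56605 probes it was not called (0.0516). The cause of these shifts was not tested. No label number occurs in more than 1 group, so no single number pairs arrays. The runs of 5 numbers each hold 1 array of every group, and whether they are the independent experiments was not tested. They were left out of the main fit. Used as a block, they changed no call of a member. The probes called in all then rose from 5250 to 5951 with TGFß1 and from 2948 to 3830 with TNFα. With IL1β they rose from 68 to 157 and with IL6/sIL6Rα from 17 to 61. Over all alternatives the probes called against control, of any gene, ran from 34 to 323 with IL1β and from 4 to 231 with IL6/sIL6Rα, and from 1847 (without TNFα 4) to 4522 (slide and runs) with TNFα, beside 2948. With normexp 3472 were called with TGFß1, beside 5250. With slide and runs as blocks together, the calls with TGFß1 against control were the same 4 genes. Dim probes are limited by background.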
